A study of Mus musculus with 15 samples.

Results

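The genes described here encode the signalling core of the CD8+ T cell: the CD3 chains, both CD8 chains, the adhesion receptor CD2 and the first intracellular links of the receptor cascade. They were chosen by name as Cd3g, Cd3d, Cd3e, Cd247, Cd8a, Cd8b1, Cd2, Lck, Zap70 and Lat. All 10 genes were listed in all 15 libraries, among 21788 gene symbols listed in at least 1 library and 10625 listed in every library. The question was how much message of the receptor complex each library held, in which proportions, and where sorted population, the label WT or KO, or antibody went with a different level.

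The T cell receptor itself has no signalling tail, so it relays antigen contact through the CD3 gamma, delta and epsilon chains and the zeta chain made by Cd247. CD8, a pair of alpha and beta chains, binds class I molecules of the target cell and carries the kinase Lck to the receptor. Lck phosphorylates the CD3 and zeta tails, Zap70 docks there, and Zap70 in turn phosphorylates the scaffold Lat, from which the downstream pathways start. In tumours, CD8+ cells that express the inhibitory receptors PD-1 and Tim-3 are often studied as exhausted cells.

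The RNA came from CD8+ T cells sorted on day 21 from E.G7 tumours, a derivative of the mouse EL4 T cell lymphoma that makes ovalbumin (OVA). The tumour cells had been placed under the skin of female mice 6 to 8 weeks old, labelled C57BL/6 or, in some libraries, with a number that counts upward from it, and the mice were 9 to 11 weeks old at analysis. Groups were read from the titles. One bulk library of OVA-specific cells came from wild-type mice and one from mice labelled KO for B7S1, with 6 mice per group. B7S1 is an inhibitory ligand encoded by Vtcn1, and B7S1R names its receptor. PD-1+ cells were sorted into B7S1R_SP (B7S1R+ Tim-3-), TIM-3_SP (Tim-3+ B7S1R-) and DN (neither), and for each population the titles give a pair of wild-type libraries, numbered 1 and 2, plus a single KO. The other 4 libraries, Control, anti_B7S1, anti_PD1 and combo (1 each), are labelled wild type, and have no dose, schedule or sort gate of their own in the labels. How many mice stand behind each sorted or antibody library, and whether the numbered libraries came from separate mice, is not given in the sources used here, so the spread between them may be technical.

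The deposited values are per-length levels, RPKM in the bulk pair and FPKM elsewhere, in 4 tables that list different genes: the bulk pair, the wild-type sorted libraries numbered 1, those numbered 2 with the 3 labelled KO, and the antibody libraries. Read depth was recovered only for the bulk pair, at about 11100000 reads for wild type and 12100000 for KO, and is unknown elsewhere. The targeted gene went against the label: Vtcn1 was 0.0687 RPKM in the bulk library labelled WT and 9.46 RPKM in the one labelled KO. Among sorted cells the 3 wild-type libraries numbered 2 had 0 FPKM of it, while it was 0.160, 2.50 and 1.02 FPKM in B7S1R_SP, TIM-3_SP and DN labelled KO. Which part of the gene was deleted is not stated, so "labelled KO" is used throughout. Transcripts of red cells summed to 95221 FPKM in TIM-3_SP wild type 2, 66205 in DN wild type 2 and 11149.6 in B7S1R_SP wild type 2, against at most 142 in each of the other 12 libraries. The listed markers of NK and gamma delta T cells summed to at most 20.0, of stromal cells to at most 25.9, of B cells to at most 39.1 and of CD4 and regulatory T cells to at most 75.6 in any library. Each sum covers only the markers that a library lists, so sums in different tables cover different genes. The antibody libraries list 2 of 9 stromal markers. Of 6 red cell markers, B7S1R_SP wild type 1 lists 3 and B7S1R_SP wild type 2 lists 6.

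The CD3 genes sit together on mouse chromosome 9 in the build GRCm38 (mm10). Cd3g (chr9:44969572-44980431, minus strand) and Cd3d (chr9:44981786-44987339, plus strand) are divergent neighbours with 1354 bases between them, and Cd3e (chr9:44998740-45009627, minus strand) lies 11400 bases beyond Cd3d. Cd8b1 (chr6:71322788-71337494, plus strand) and Cd8a (chr6:71373427-71379173, plus strand) are 35932 bases apart. The other members lie singly: Cd247 (chr1:165788681-165877277), Zap70 (chr1:36761798-36782818), Cd2 (chr3:101275899-101287939), Lck (chr4:129548344-129573641) and Lat (chr7:126363824-126369570). Cd3g, Cd3d, Cd3e, Cd8a and Cd8b1 are the members that were lowest in B7S1R_SP in every set of sorted libraries (values below), and the promoters of the 4 of them that RefSeq's table holds are shown for that reason. Each is the 250 bases before the gene's start, 5′ to 3′ on the gene's own strand, from RefSeq on GRCm38.p6. Capitals mark matches, on either strand, to 4 short strings. The ETS factor string is AGGAAG. The RUNX factor string is TGTGGT. For E-box proteins the string CAGGTG was searched. The TATA element was searched as TATAAA.
Cd3g, chr9:44980432-44980681, minus strand: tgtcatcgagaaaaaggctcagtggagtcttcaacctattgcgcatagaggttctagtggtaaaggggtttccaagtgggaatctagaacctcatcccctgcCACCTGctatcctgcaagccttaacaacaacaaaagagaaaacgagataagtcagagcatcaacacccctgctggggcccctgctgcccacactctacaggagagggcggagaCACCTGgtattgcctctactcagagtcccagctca
Cd3d, chr9:44981536-44981785, plus strand: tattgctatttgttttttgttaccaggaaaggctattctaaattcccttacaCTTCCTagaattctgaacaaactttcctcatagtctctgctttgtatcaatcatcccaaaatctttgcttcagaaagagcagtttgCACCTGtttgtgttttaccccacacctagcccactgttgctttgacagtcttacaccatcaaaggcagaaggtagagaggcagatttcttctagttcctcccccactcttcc
Cd3e, chr9:45009612-45009861, minus strand: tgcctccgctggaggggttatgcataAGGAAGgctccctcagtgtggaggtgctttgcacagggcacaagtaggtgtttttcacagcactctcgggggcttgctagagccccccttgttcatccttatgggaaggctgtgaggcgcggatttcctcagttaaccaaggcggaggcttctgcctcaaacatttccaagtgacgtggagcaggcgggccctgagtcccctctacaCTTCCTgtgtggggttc
Cd8a, chr6:71373177-71373426, plus strand: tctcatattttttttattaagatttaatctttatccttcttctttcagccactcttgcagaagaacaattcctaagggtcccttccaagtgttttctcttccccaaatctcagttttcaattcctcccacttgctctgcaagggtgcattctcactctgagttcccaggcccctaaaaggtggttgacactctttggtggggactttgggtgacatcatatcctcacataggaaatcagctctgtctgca
The table held 8 of the 10 members, in 11 windows. AGGAAG was in 8 of these 11 windows and in 29.5% of all 32851 windows of that length, CAGGTG in 6 and 17.2%, and TGTGGT in 2 and 14.0%. TATAAA was in 0 of the 11 and in 12.4% of all. In the windows printed, Cd3g held CAGGTG at 2 places, Cd3d held AGGAAG and CAGGTG once each, Cd3e held AGGAAG at 2 places, and Cd8a held none of the 4 strings. A match of letters is a description of the window and not a binding site. None of the 4 strings overlapped another in these windows.

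Every library carried message for the whole complex, and Cd3g led it. In the bulk pair Cd3g was 4817 RPKM in the library labelled WT and 6022 in the one labelled KO, and Cd3d, whose product like that of Cd3g pairs with CD3 epsilon, was 2407 and 2464. Cd3g ranked first among the 10 genes in 15 of 15 libraries, with a share of the summed level that ran from 18.9% to 53.0% (median 38.1%). Cd3d took 9.64% to 25.0% and ranked second in 10 libraries. The beta chain Cd8b1 took 7.72% to 16.7% and ranked second in 4, and Lat ranked second in B7S1R_SP wild type 2. Zap70, the kinase that binds the phosphorylated CD3 tails, was last in 8 libraries, Lat in 3, and Cd247 and Lck in 2 each. Those of Lck were the bulk pair, in which its level rests on a doubtful length (described with that pair). A share within a library does not depend on the scaling between libraries, and with only the 4 CD3 chains as denominator the median share of Cd3g was 62.0%.

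**Figure D1:**
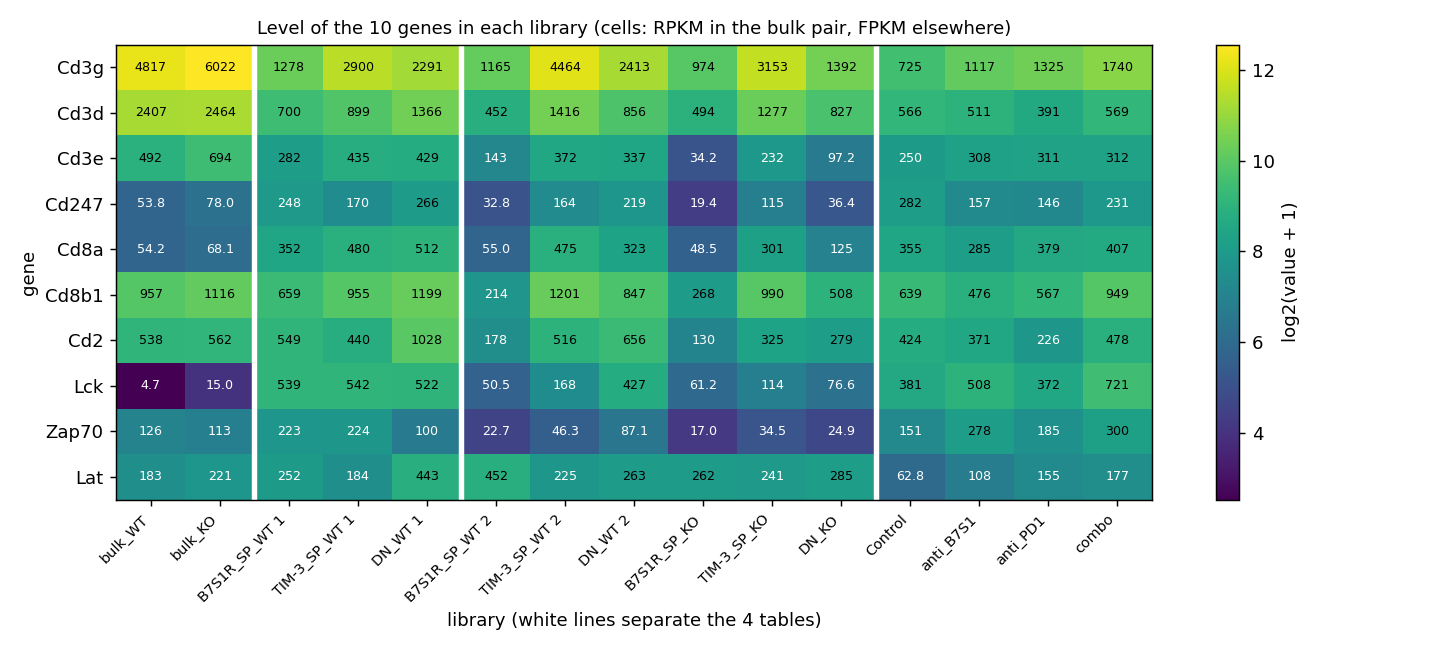
Level of the 10 genes (rows) in the 15 libraries (columns), with colour on the log2(value + 1) scale and the value in each cell in RPKM for the bulk pair and FPKM elsewhere. Cd3g is the highest gene in every column, and B7S1R_SP wild type 2 and the B7S1R_SP and DN libraries labelled KO are dark for Cd247, Cd8a, Lck and Zap70.

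The CD8 pair was unevenly balanced between tables. Cd8b1 per-length level was 17.6 and 16.4 times that of Cd8a in the bulk libraries labelled WT and KO. In the sorted libraries the ratio ran from 1.87 in B7S1R_SP wild type 1 to 5.52 in B7S1R_SP labelled KO, and in the antibody libraries from 1.50 in anti_PD1 to 2.33 in combo. All 4 tables therefore listed more Cd8b1 than Cd8a, by amounts that did not overlap between the bulk pair and the rest.

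The share held by members with longer transcripts also differed between tables. The longest coding transcripts of Lck (2185 bases), Zap70 (2245), Cd247 (2957) and Cd8a (3128) exceed 2000 bases, and those of the other 6 members run from 1023 bases in Cd3g to 1617 in Cd3d. The split was chosen after the values were seen. The 4 long members made up 2.48% and 2.41% of the 10-gene sum in the bulk pair, of which Lck gave 0.0491 and 0.132 percentage points. They made up 26.8%, 19.6% and 17.2% in B7S1R_SP, TIM-3_SP and DN wild type 1, and 5.82%, 9.43% and 16.4% in wild type 2. In the libraries labelled KO the shares were 6.33%, 8.34% and 7.20%, and in the antibody libraries they lay between 26.7% and 30.5%. Over all other genes with a length, transcripts above 2000 bases held 18.5% and 18.2% of the summed level in the bulk pair, 23.5% to 30.4% in wild type 1, 13.1% to 20.3% in the table of wild type 2 and KO, and 35.6% to 40.3% in the antibody libraries. By both measures the antibody libraries were the highest table, although B7S1R_SP wild type 1 reached anti_PD1 for the members, and the bulk pair was lowest only for the members. The part of transcript length in the results below was not tested beyond the values given beside them.

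**Figure D2:**
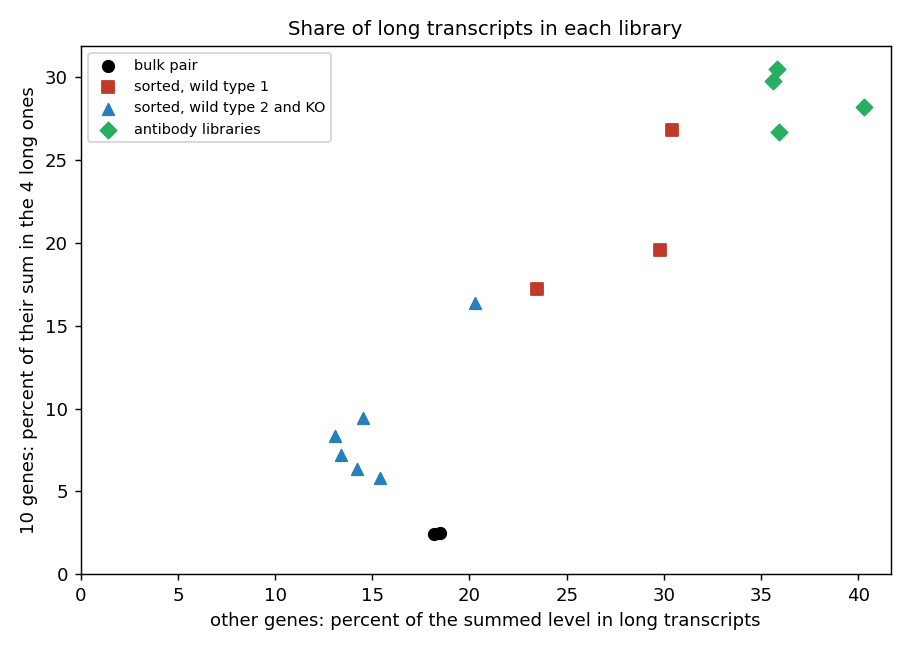
Share of the summed level held by transcripts above 2000 bases in each of the 15 libraries (points), for all other genes (x axis, percent) and for the 10 genes (y axis, percent, the part held by Lck, Zap70, Cd247 and Cd8a). The antibody libraries lie at the top right, and the bulk pair lies at 2.48% and 2.41% on the y axis.

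Among the sorted populations, message of the receptor complex was lowest in B7S1R_SP. The 10 genes summed to 5081 FPKM in B7S1R_SP, 7230.1 in TIM-3_SP and 8155 in DN among the libraries numbered 1, and to 2765, 9047 and 6428 among those numbered 2. In the libraries labelled KO the sums were 2308, 6783 and 3652 FPKM. TIM-3_SP over B7S1R_SP was thus 1.42, 3.27 and 2.94, and DN over B7S1R_SP was 1.60, 2.33 and 1.58. From these sums, fewer T cells in a library and less receptor message per cell cannot be told apart.

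Cd3g was 1278 and 1165 FPKM in the B7S1R_SP wild-type libraries, 2900.5 and 4464 in TIM-3_SP, and 2291 and 2413 in DN. Neither B7S1R_SP library reached any library of the other populations. Cd3e, which pairs with both other CD3 chains, was 282 and 143 FPKM in B7S1R_SP, 435 and 372 in TIM-3_SP, and 429 and 337 in DN. Cd3d was 699.7 and 452 FPKM in B7S1R_SP, 899 and 1416 in TIM-3_SP, and 1366 and 856 in DN. Both genes were again below the other populations without overlap. Cd8a was 352 and 55.0 FPKM in B7S1R_SP, 479.7 and 475 in TIM-3_SP, and 512 and 323 in DN, so that B7S1R_SP wild type 1 overlapped DN. Cd8b1 was 659 and 214 FPKM in B7S1R_SP, 955 and 1201 in TIM-3_SP, and 1199 and 847 in DN. It did not overlap either population.

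The B7S1R_SP wild-type libraries differed most from each other in the kinases. Lck was 539 FPKM in the one numbered 1 and 50.5 in the one numbered 2, and Zap70 was 223 and 22.7. The gaps were 10.7 and 9.80 times. Lck was 542 and 168 FPKM in TIM-3_SP and 522 and 427 in DN, and Zap70 was 224 and 46.3 in TIM-3_SP and 100.2 and 87.1 in DN. Cd247, the zeta chain, was 248 and 32.8 FPKM in B7S1R_SP, 169.5 and 164 in TIM-3_SP, and 266 and 219 in DN. Cd2, the receptor for CD48 on other cells, was 549 and 178 FPKM in B7S1R_SP, 439.6 and 516 in TIM-3_SP, and 1028 and 656 in DN, where both values lay above all others.

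Lat ran the other way. It was 252 and 452 FPKM in B7S1R_SP, 184 and 225 in TIM-3_SP, and 443 and 263 in DN, so that B7S1R_SP lay above TIM-3_SP without overlap. Lat took 16.4% of the 10-gene sum in B7S1R_SP wild type 2 and 11.3% in B7S1R_SP labelled KO, but 4.95% in B7S1R_SP wild type 1. Its highest share elsewhere was 7.82%, in DN labelled KO.

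No member passed the test between populations. With limma on log2(FPKM + 1) over the 6 wild-type libraries and Benjamini-Hochberg adjustment, 0 of 10 members and 0 of 10411 genes (0%) had an adjusted p under 0.05 in each of the 3 comparisons. At an unadjusted p under 0.05 there were 280 genes (2.69%) for B7S1R_SP versus DN, 493 (4.74%) for B7S1R_SP versus TIM-3_SP and 358 (3.44%) for TIM-3_SP versus DN, with 0 members in each. With the replicate number as a block these were 553 (5.31%), 812 (7.80%) and 654 (6.28%), again with 0 members in each. Against DN, all 10 members were lower in B7S1R_SP, with a median log2 difference of -1.17 against -0.03 over all genes tested, of which 51.2% were lower. Cd8a had the largest difference, -1.54 ± 1.00 (SE, n = 2 against 2, limma adjusted p = 1), which was -0.21 without B7S1R_SP wild type 2. Against TIM-3_SP, 9 members were lower and Lat was higher by 0.72 ± 0.78, with a median of -0.93 against 0.16 over all genes, of which 43.1% were lower. There Cd8a differed by -1.77 ± 1.00 and Cd3g by -1.56 ± 0.74 (limma adjusted p = 0.999 for both), and without B7S1R_SP wild type 2 Cd8a differed by -0.44. The size of the median depended on which B7S1R_SP library was kept, and the median of all genes shifted with it. Without B7S1R_SP wild type 2 the member median was -0.43 against DN and -0.12 against TIM-3_SP, beside 0.26 and 0.51 over all genes. Without B7S1R_SP wild type 1 it was -2.09 and -1.87, beside -0.34 and -0.18.

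Without overlap, B7S1R_SP was below DN for 5 members (Cd3g, Cd3d, Cd3e, Cd8b1 and Cd2) where 17.2% of the genes tested met this, and below TIM-3_SP for 5 (Cd3g, Cd3d, Cd3e, Cd8a and Cd8b1) where 9.45% did. It lay above TIM-3_SP for 1 (Lat), against 15.9% of all genes, and above DN for 0, against 12.2%. The libraries labelled KO kept this order. B7S1R_SP was the lowest of the 3 populations in all 3 sets for Cd3g, Cd3d, Cd3e, Cd8a and Cd8b1, 5 of the 10 members, against 599 of 10178 genes (5.89%). When all 9 sorted libraries were fitted with the set as a block, 42 of 10178 genes (0.413%) passed for B7S1R_SP versus TIM-3_SP, 0 of them members, and with the replicate number as a block over the 6 wild-type libraries 7 of 10411 (0.0672%) did, again 0 of them members. In the fit of 9 libraries Cd3g differed by -1.60 ± 0.41 (limma adjusted p = 0.139), Cd8b1 by -1.63 ± 0.49 (adjusted p = 0.188) and Cd8a by -2.05 ± 0.57 (adjusted p = 0.158). An unadjusted limma p under 0.05 was reached there by 5 members and by 14.9% of genes. For B7S1R_SP versus DN the same fit gave 3 members and 6.66% of genes, and for TIM-3_SP versus DN 0 members and 9.06%.

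Within each set of sorted libraries, the summed level of myeloid markers was highest in B7S1R_SP, where the sum of the receptor genes was lowest. Of 24 myeloid markers, 13 passed the filter on low values in the wild-type libraries, some of them through B7S1R_SP, where they were high, and 0 of the 13 passed the limma test. In B7S1R_SP, 11 of the 13 were higher and 2 lower, against DN and against TIM-3_SP alike. The summed level of the list was 2445, 849 and 9013 FPKM in B7S1R_SP wild type 1, wild type 2 and labelled KO, and between 181 and 693 FPKM in the TIM-3_SP and DN libraries. These sums cover the 17 markers listed in the sorted libraries numbered 1 and the 23 listed in the other sorted libraries. In B7S1R_SP labelled KO the sum held 2439.6 FPKM of Lyz2, the macrophage lysozyme, and 1456 of Fcer1g, and all 23 listed markers were above 0. In B7S1R_SP wild type 1 most of the sum was Cd74 (943 FPKM) and the class II genes H2-Aa (325), H2-Ab1 (526) and H2-Eb1 (334). The 2 markers that were lower, against DN and against TIM-3_SP, were Cd68 and Cd14. Cd68 was 23.0 and 31.4 FPKM in B7S1R_SP wild type 1 and 2, 62.4 and 17.9 in TIM-3_SP, and 79.8 and 88.3 in DN. Cd14 was 0.0900 and 8.78 FPKM in B7S1R_SP, 10.9 and 8.36 in TIM-3_SP, and 2.11 and 3.06 in DN. In B7S1R_SP labelled KO they were 113 and 59.9 FPKM. Csf1r, a defining macrophage receptor, was 22.2, 1.82 and 4.27 FPKM in the 3 B7S1R_SP libraries and at most 0.760 in the TIM-3_SP and DN libraries. The library with the lowest 10-gene sum of the wild-type ones, B7S1R_SP wild type 2, held fewer myeloid transcripts than wild type 1. The part of myeloid RNA in the lower receptor message was not tested.

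**Figure D3:**
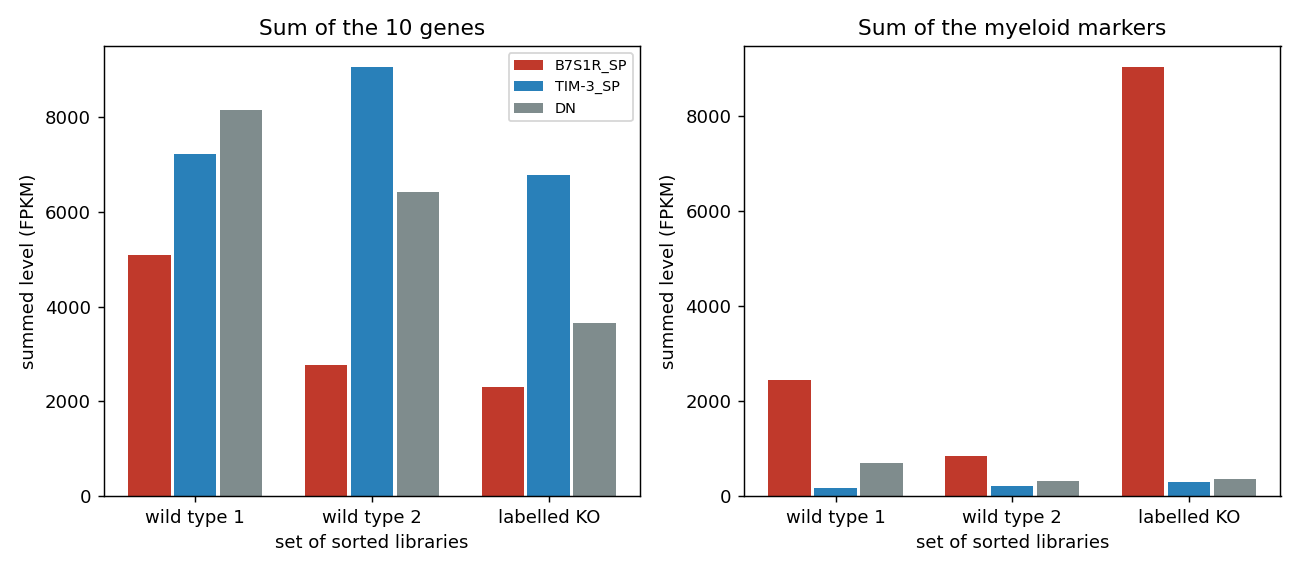
Summed FPKM (bars from 0, 1 library each) of the 10 receptor genes (left) and of the listed myeloid markers (right) in the 3 sorted populations, for wild type 1, wild type 2 and the libraries labelled KO. B7S1R_SP is lowest for the receptor genes in each set, at 5081, 2765 and 2308, and highest for the myeloid markers.

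Between TIM-3_SP and DN the members were split, with 6 higher and 4 lower in TIM-3_SP and a median of 0.07 against -0.17 over all genes, of which 58.7% were lower. Cd3g was higher in both TIM-3_SP wild-type libraries than in both DN libraries, by 0.61 ± 0.74 (limma adjusted p = 1), which 7.99% of genes tested also were. Cd247, Cd2 and Lat were lower without overlap, as 23.3% of genes were. Cd2 differed by -0.79 ± 0.85 and Lat by -0.74 ± 0.78 (limma adjusted p = 1 for both). Cd3g and Cd3e were higher in TIM-3_SP than in DN in all 3 sets, 2 of the 10 members against 8.61% of genes. Leaving out DN wild type 2 turned the member median to -0.22, where that of all genes was also -0.22. Leaving out TIM-3_SP wild type 1 turned it to -0.29, against -0.44 over all genes. With the set as a block over 9 libraries, 6 genes (0.0590%) and 0 members passed, and with the replicate number as a block over the 6 wild-type libraries 2 (0.0192%) and 0.

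The other genes of the pathway gave 0 calls as well. Of 34 listed pathway genes outside the 10, all 34 were tested, and B7S1R_SP was lower in 25 and higher in 9 against DN (median -0.88) and lower in 23 and higher in 11 against TIM-3_SP (median -0.44). Over all genes tested, 51.2% were lower against DN (median -0.03) and 43.1% against TIM-3_SP (median 0.16). Txk, a Tec-family kinase, differed most, by -2.55 ± 0.77 against DN (limma adjusted p = 1) and -2.54 ± 0.77 against TIM-3_SP (adjusted p = 0.956). Themis, an adaptor of developing and mature T cells, differed by -1.87 and -1.94, and Fyn, a Src-family kinase like Lck, by -1.87 against DN. Cd4 was 23.4 and 0.660 FPKM in B7S1R_SP wild type 1 and 2 and 0.380 and 0 in TIM-3_SP, a difference that rests on 1 library. Between TIM-3_SP and DN, 23 of the 34 were lower (median -0.31), as 58.7% of all genes were (median -0.17). The largest differences were in Tespa1 (-2.49), Trat1 (-1.84), which encodes an adaptor tied to the receptor complex, and the exchange factor Vav1 (-1.25).

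Of 20 genes that restrain receptor signalling, 16 were lower in B7S1R_SP than in DN (median -0.52) and 13 lower than in TIM-3_SP (median -0.79), with 0 passing the limma test. The largest differences from DN were in the adaptors Lax1 (-2.53) and Sit1 (-2.53) and the phosphatase gene Ptpn22 (-2.26). Against TIM-3_SP they were in Ubash3b (-2.24), the ubiquitin ligase gene Cblb (-2.21) and Lax1 (-2.17). TIM-3_SP was lower than DN in 11 of the 20 (median -0.31), with Ubash3b 1.61 higher and the diacylglycerol kinase genes Dgka and Dgkz 1.56 and 1.50 lower on the log2 scale. Of 20 further genes of CD8 T cell identity, 19 were lower in B7S1R_SP than in DN (median -1.07) and 18 lower than in TIM-3_SP (median -0.79), 0 passing. Beside both lists, 51.2% of all genes tested were lower in B7S1R_SP than in DN and 43.1% lower than in TIM-3_SP. In TIM-3_SP, 58.7% were lower than in DN. The 9 receptor constant-region symbols sought, such as Trac and Trbc1, are not analysed here because none matched.

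In the sorted populations, the libraries labelled KO held less message of most members. Cd3e was 34.2, 232 and 97.2 FPKM in B7S1R_SP, TIM-3_SP and DN labelled KO, each below both wild-type libraries of its population. Cd247 was 19.4, 115 and 36.4 FPKM, Cd8a 48.5, 301 and 125, and Cd2 130.1, 325 and 279. Zap70 was 17.0, 34.5 and 24.9 FPKM, and these 4 genes too lay below both wild-type libraries in each population. That made 5 of 10 members, against 14.7% of the 10178 genes tested. In DN, wild type 2 exceeded the library labelled KO 6.02 times for Cd247, 5.58 times for Lck, 3.50 times for Zap70 and 3.47 times for Cd3e, and in B7S1R_SP it did so 4.17 times for Cd3e. Lck overlapped in B7S1R_SP, at 61.2 FPKM labelled KO against 50.5 in wild type 2, and was 114 and 76.6 FPKM in TIM-3_SP and DN labelled KO.

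The remaining receptor genes and Lat differed less. Cd3g was 974, 3153 and 1392 FPKM in the B7S1R_SP, TIM-3_SP and DN libraries labelled KO, Cd3d was 494, 1277 and 827, and Cd8b1 was 268, 989.8 and 508. Lat was 262, 241 and 285 FPKM and lay inside the wild-type range in B7S1R_SP and DN and above both wild-type libraries in TIM-3_SP. For Cd3d and Cd8b1 the B7S1R_SP library labelled KO was above wild type 2.

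The fit averaged the label over the 3 populations, with population as a covariate. All 10 members were lower in the libraries labelled KO, as 68.2% of all genes tested were, with a median of -1.20 against -0.41 over those genes. In that fit 0 members and 0 of 10178 genes (0%) passed the limma threshold. An unadjusted p under 0.05 was reached by 5 members and by 1377 genes (13.5%), but with the set as a block by 1 member, Cd3e, and by 670 genes (6.58%). Cd3e differed by -1.76 ± 0.47 (limma adjusted p = 0.339), Cd247 by -1.80 ± 0.67 (adjusted p = 0.343), and Lck and Zap70 by -1.81 ± 0.74 each (adjusted p = 0.358 and 0.360). Cd2 differed by -1.12 ± 0.48 (adjusted p = 0.369) and Cd8a by -1.29 ± 0.60 (adjusted p = 0.375), while Cd3d and Lat differed by -0.13 ± 0.42 each. The label is partly confounded with the table, because none of the libraries labelled KO is in the table of wild type 1. With the set as a block the median was -0.76 against -0.15, Cd3e differed by -1.50 ± 0.49 (limma adjusted p = 0.755), and 1 gene (0.00983%) and 0 members passed. Within the block the other differences were -1.26 for Cd247, -0.91 for Lck, -0.86 for Zap70, -0.78 for Cd2 and -0.73 for Cd8a. The gene that passed was Hba-a2, an alpha globin of red cells (-11.44 ± 0.88, limma adjusted p = 0.00468). Against wild type 2 alone, 6 members were lower in every population (Cd3g, Cd3e, Cd247, Cd8a, Cd2 and Zap70), as 23.4% of genes were, and 0 were higher in every population, as 13.8% were. A fit of those 6 libraries passed 4 genes (0.0396%) and 0 members.

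Centring each library on its own median moved the median of all genes from -0.41 to 0.22. Relative to that shift the members were still lower on balance (median -0.57), with Cd3g, Cd3d, Cd8b1 and Lat then higher in the libraries labelled KO, by 0.21, 0.50, 0.11 and 0.51. In the fit without centring, the median was -1.80 over the 4 members above 2000 bases and -0.48 over the 6 shorter ones. Over other genes it was -0.51 for long and -0.06 for short transcripts. Single members did not all follow this split, since the short Cd3e differed by -1.76 and the long Cd8a by -1.29. With the set as a block, Cd3e had the largest difference of the members. Against wild type 2 alone the member medians were -0.89 and -0.37, and those of other genes -0.19 and -0.11. Wild type 2 over labelled KO was 0.825, 1.47 and 5.58 for Lck and 1.69, 1.42 and 6.02 for Cd247 in B7S1R_SP, TIM-3_SP and DN. In a limma fit of the interaction of label and population, 0 members and 0 of 10178 genes passed, with 45 genes at an unadjusted p under 0.05, but each population has only 1 library labelled KO, so this does not show that the differences were alike.

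Transcripts of other cells also differed by label. Of 15 myeloid markers tested, 12 were higher in the libraries labelled KO (median 0.64, and 0.81 with 11 higher within the block on set). Only 13 passed the filter in the wild-type libraries alone, so some entered it through the libraries labelled KO. The high myeloid sum was that of 1 library. It was 9013 FPKM in B7S1R_SP labelled KO, but 289.9 in TIM-3_SP and 353 in DN labelled KO. In wild type 2 these sums were 849, 207 and 319.7 FPKM. The 3 red cell markers tested were all lower (median -1.77, and -3.47 within the block), and the high red cell sums were those of wild type 2. Of the 20 further genes of CD8 T cell identity, 18 were lower (median -1.18, and -0.45 with 17 lower within the block). Over all genes tested, 68.2% were lower, and 60.3% within the block. The part of these transcripts in the lower receptor message was not tested.

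**Figure D4:**
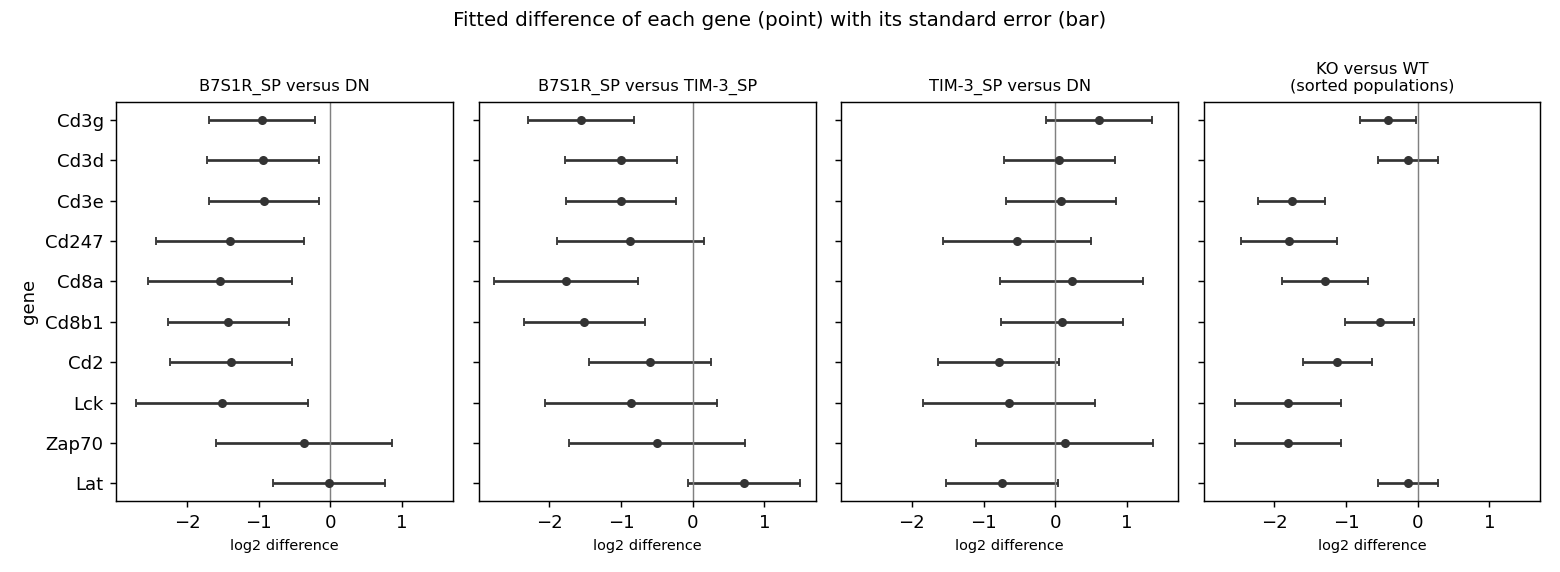
Fitted log2 difference (point) and standard error (bar) of each of the 10 genes in the 3 comparisons of wild-type populations and in the comparison of libraries labelled KO with wild type. All 10 points lie at or left of 0 in the panels of B7S1R_SP versus DN and KO versus WT, and no point passed the adjusted threshold.

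Of the 34 pathway genes, 28 were lower in the sorted libraries labelled KO (median -0.92, 0 passing, 5 at an unadjusted p under 0.05). Over all genes in that fit, 68.2% were lower (median -0.41) and 13.5% had an unadjusted limma p under 0.05. Cd5, a receptor that tunes T cell activation, differed by -2.31 ± 0.76 (limma adjusted p = 0.341), its relative Cd6 by -2.14 ± 1.20 and Lcp2, the SLP-76 scaffold that works with Lat, by -1.86 ± 0.54 (adjusted p = 0.339). Of the 20 restraining genes, 19 were lower (median -1.21), led by the adaptors Sh2d2a (-2.98 ± 0.73, adjusted p = 0.339), Dok2 (-2.56 ± 0.68) and Lax1 (-2.51 ± 1.02). Within the block on set the medians of these lists were -0.35 and -0.55, and an unadjusted p under 0.05 was reached by 3 pathway and 4 restraining genes, against 5 and 8 without it. Over all genes within the block, 60.3% were lower (median -0.15) and 6.58% reached that limit.

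In the bulk pair of OVA-specific cells the same label went with slightly higher levels. The 10 genes summed to 9633 RPKM in the library labelled WT and 11352 in the one labelled KO, a ratio of 1.18. Cd3e was 492 and 694 RPKM in the libraries labelled WT and KO, Cd247 53.8 and 78.0, and Cd8a 54.2 and 68.1. Cd8b1 was 957 and 1116 RPKM, Cd2 538 and 562, Lat 183 and 221, and Zap70 126 and 113. With 1 library a group there is no replicate check and no test. Of the 10 members 9 were higher. The least of these was Cd3d, by 0.03 on the log2 scale, a value that 53.0% of genes tested did not exceed. The median log2 difference was 0.29 over them all and -0.02 over the 6075 genes at 5 RPKM or more in the higher library. Past 2-fold, 1 member was higher, against 10.7% of genes, and 0 were lower, against 12.1%.

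That member was Lck, at 4.73 and 15.0 RPKM. Its reads in lowest terms were 395 and 1358, on an implied length of 7519 bases or a multiple of it, where the longest coding transcript annotated has 2185. Cd8a gave 1884 and 2569 reads on 3129 bases, against 3128 annotated. The RPKM of Lck therefore rests on a longer length than the annotated one, and its level cannot be set beside the other members in these libraries. Of the pathway list, 24 genes could be compared in the bulk pair, 1 was past 2-fold higher and 2 lower, with Tespa1 at -1.55 and Themis at 1.53. Over all genes 10.7% were past 2-fold higher and 12.1% lower. Of 13 restraining genes, Cbl was higher (1.77), Sit1 was lower (-1.08) and Ptpn2 differed by -0.56.

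The antibody libraries, 1 each, held their highest receptor message in combo. The 10 genes summed to 3834 FPKM in Control, 4117 in anti_B7S1, 4056 in anti_PD1 and 5884 in combo. Combo over Control was 1.53, over anti_PD1 1.45 and over anti_B7S1 1.43, while each single antibody was within 1.07 times Control. Combo, anti_B7S1 and anti_PD1 share the same Control library, so their differences from it are not independent, and no test is possible.

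Cd3g was 725 FPKM in Control, 1117 in anti_B7S1, 1325 in anti_PD1 and 1739.7 in combo. Lat was 62.8, 108, 155 and 177 FPKM in the same order. Both genes were lowest in Control and highest in combo. Zap70 was 151, 278, 185 and 300.1 FPKM, and Lck was 381, 508, 372 and 721. Cd8b1 was 639, 476, 567 and 949 FPKM and Cd8a 355, 285, 379 and 407. Combo was the highest of the 4 for each of these 6 genes. Cd3e was 249.6 FPKM in Control and 308, 311 and 312 in the others, and Cd3d was 566, 511, 391 and 569. Cd2 was 424, 371, 226 and 478 FPKM, lowest in anti_PD1. Cd247 was the single member highest in Control, at 282, 157, 146 and 231 FPKM.

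Past 2-fold against Control, 0 members differed in anti_B7S1, where 37.9% of genes tested were higher and 29.0% lower. In anti_PD1 1 member, Lat (2.45-fold), was higher, against 43.8% of genes, and 0 were lower, against 23.8%. With each library centred on its median, Lat was 1.06 higher on the log2 scale, and Cd247 and Cd2 were then past 2-fold lower, at -1.17 and -1.13. In combo 2 were higher, Lat (2.79-fold) and Cd3g (2.40-fold), against 40.1%, and 0 lower, against 28.0%. The median of the 10 members was 0.08 in anti_B7S1, 0.03 in anti_PD1 and 0.44 in combo, against 0.20, 0.49 and 0.27 over all genes. Combo exceeded anti_PD1 past 2-fold in 1 member, Cd2 (2.11-fold), against 23.6% of genes, and anti_B7S1 in 0, against 33.3%. It was lower past 2-fold in 0 members against either, where 32.7% and 30.8% of genes were. All 10 members were higher in combo than in either single antibody, with medians of 0.60 against -0.15 over all genes for anti_PD1 and 0.51 against 0.06 for anti_B7S1. Cd3e had the smallest of these differences, 0.00 and 0.02, values that 54.1% and 49.0% of genes tested did not exceed.

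**Figure D5:**
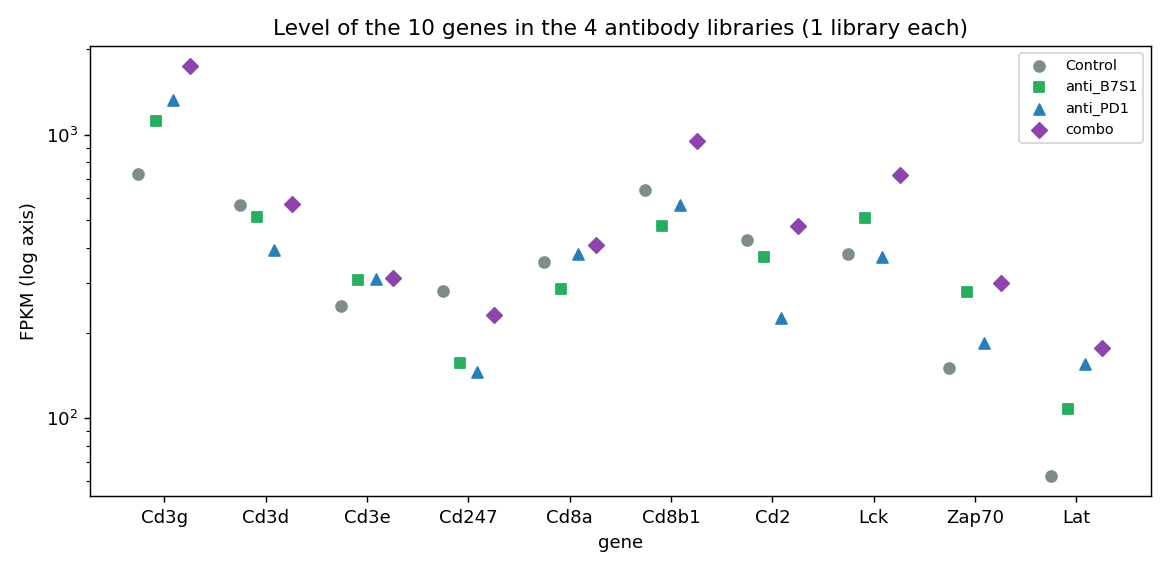
FPKM (log axis) of each of the 10 genes in the 4 antibody libraries, 1 point per library. Combo is highest for all genes but Cd247, for which Control is highest at 282.

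Control listed 5752 genes at 1 FPKM or more, against 6972 in anti_B7S1, 8640 in anti_PD1 and 6913 in combo. Of the pathway genes outside the 10 at 5 FPKM or more in the higher library, 12 of 28 were past 2-fold higher and 3 lower in anti_B7S1, 12 of 29 higher and 5 lower in anti_PD1, and 10 of 28 higher and 5 lower in combo, each against Control, beside shares over all genes of 37.9%, 43.8% and 40.1% higher and 29.0%, 23.8% and 28.0% lower. Vav1 was 7.71 FPKM in Control and 77.1 in anti_B7S1, and Malt1 7.12 and 45.6, while Trat1 was listed at 0 in Control and at 19.0 in anti_B7S1. Nfatc2, a transcription factor driven by calcium, was 16.0 FPKM in Control, 0.0800 in anti_PD1 and 0.0200 in combo. Plcg1 was 1.01 FPKM in Control and 35.7 in anti_PD1, and Nfatc3 0.280 in Control and 14.6 in combo. Of the restraining genes, 9 of 18, 8 of 19 and 8 of 18 were past 2-fold higher and 4, 6 and 5 lower in the same order. Dok1 was 65.0 FPKM in Control, listed at 0 in anti_B7S1 and combo and 0.0300 in anti_PD1, and Dusp22 was 46.2, 0.640, 0 and 0.740 in Control, anti_B7S1, combo and anti_PD1. Lax1 was 0.850 FPKM in Control, 41.3 in anti_B7S1 and 47.4 in combo, and Ptpn22 was 19.2 in Control and 394 in anti_PD1. Csk, the kinase that holds Lck inactive, was 1.99 FPKM in Control, 49.6 in anti_B7S1 and 14.8 in anti_PD1. On the log2 scale, combo differed from anti_B7S1 and anti_PD1 by -5.52 and -3.84 for Csk. Its membrane anchor Pag1 was 2.90 FPKM in Control, 0.490 in anti_B7S1, 0.190 in anti_PD1 and 19.3 in combo. Dgka was 36.5, 86.2, 64.5 and 5.51 FPKM in the same order. Txk was 45.1 FPKM in anti_PD1 and 3.16 in combo, beside 4.11 in Control and 0.110 in anti_B7S1. Sos1 was 5.94 FPKM in anti_PD1 and 0.640 in combo, and was listed at 0 in Control and anti_B7S1. Myeloid markers summed to 501 FPKM in Control and 209, 135 and 184 in anti_B7S1, anti_PD1 and combo, with Cd68 at 247 and Cd74 at 246 FPKM in Control. Control listed 9 of its 14 myeloid markers at 0, among them Apoe and Arg1. The part of these transcripts was not tested.

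Over the 9 sorted libraries, the genes whose log2(FPKM + 1) followed the mean of the 10 members most closely, among 9768 genes, were Ctla4 (Pearson r = 0.987), Gimap1 (0.986), Rac2 (0.986), H2-Q7 (0.986) and Cd27 (0.984). Ctla4 encodes an inhibitory receptor of activated T cells and Cd27 a costimulatory one. Ctla4 ran from 6.06 FPKM in B7S1R_SP labelled KO to 459 in TIM-3_SP wild type 1, and Cd27 from 35.5 in B7S1R_SP labelled KO to 324 in DN wild type 1. Cd8a alone was followed most closely by Gna15 (0.991), Arl6ip1 (0.988), Capzb (0.984), Rac2 (0.981) and Spry2 (0.980). These correlations describe 9 libraries that share populations and tables, carry no test, and were the highest of 9768.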

How the data were processed

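Levels of 10 genes were read in all 15 libraries. The members, gene lists and comparisons were chosen with earlier results of these data known. RNA was amplified with the SMARTer ultra low input kit, per the labels' protocols. HISAT2, Bowtie2, RSEM and the build mm10 are named in the submitters' processing notes, without versions or roles. The authors' bulk files hold RPKM and their other files hold FPKM, per the file headers, with lowest values of 0.001 and 0. Per-length values fall when other abundant transcripts rise, so they are shares of each library. Gene positions and lengths were taken from GENCODE on GRCm38.

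Sorted populations were compared with limma 3.58.1 in R 4.3.3 on log2(FPKM + 1), keeping genes that every library of a fit lists and whose mean reaches 1 FPKM. P-values were adjusted by Benjamini and Hochberg's method, and 0.05 was the limit. A fold on this scale understates the change of low genes. The script was tested on simulated data. Single libraries were compared over genes at 5 or more in the higher library, and 2-fold counted as a difference. Deviations of same-numbered wild-type libraries correlated at 0.193, 0.269 and 0.401 between populations over 10411 genes. The libraries numbered 1 and 2 also lie in different tables. These correlations therefore cannot tell pairing by the numbers of the titles from a difference between tables. The main fits hold no block. Blocked values are given where they move the number of genes or members that passed or had an unadjusted p under 0.05. Bulk depth was fitted to low RPKM steps: 52.1% of 1688 genes with 1 transcript came out whole within 0.02 reads, against a median of 2.43% for other totals, so no count model was run. Duplicated symbols were dropped. The named genes are the 10 members, the 3 genes with the largest difference in each list of pathway and restraining genes, and the 5 genes most like the members. Markers of other cell types (Lyz2, Fcer1g, Csf1r, Cd68, Cd14, Cd74, H2-Aa, H2-Ab1, H2-Eb1, Apoe, Arg1, Hba-a2) fall outside the rule and were named after their values were seen. Some genes that this rule names are not reported here. Alternatives were the pseudocount, the filter, absent genes as 0, centring on the median, the block and each library left out.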

Additional observations from a re-analysis of the deposited data

Results flagged for a closer look

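Cd3e, Cd247, Cd8a and Cd2 went in opposite directions with the label KO in 2 settings: every sorted library labelled KO lay below both wild-type libraries of its population, and the bulk library labelled KO lay above the one labelled WT. The log2 difference was 0.50 in the bulk pair and -1.76 in the sorted populations for Cd3e, a gap of 2.26. For Cd247 it was 0.53 and -1.80, a gap of 2.33, and for Cd8a 0.32 and -1.29, a gap of 1.61. For Cd2 it was 0.06 and -1.12, a gap of 1.18. These gaps were not tested, since the bulk pair has 1 library a group, other gates and another unit. The share of all genes with such opposite directions was not counted.

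The effect of an antibody alone and on top of the other antibody had opposite signs for 6 members. The share of all genes with opposite signs was not counted, so whether this is unusual cannot be told. This held for both antibodies in Cd3d, Cd247, Cd8b1 and Cd2, only for the B7S1 antibody in Cd8a, and only for the PD-1 antibody in Lck. The difference, combo minus both single antibodies plus Control on the log2 scale, was 0.68 for Cd3d, 1.50 for Cd247, 0.42 for Cd8a, 1.17 for Cd8b1, 1.27 for Cd2 and 0.54 for Lck. It is the same number for either antibody, rests on 4 single libraries and was not tested. For Cd247, anti_PD1 differed from Control by -0.95 and combo from anti_B7S1 by 0.56. For Lck the first of these effects was only -0.03.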

How the results depend on the processing

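No member passed the adjusted threshold under any alternative of the limma comparisons. Of 520 member values under alternatives, 493 kept their direction and 27 changed it. The count of genes passing, 0 in each main limma comparison, was 4 for B7S1R_SP versus TIM-3_SP and 2 for TIM-3_SP versus DN with each library centred on its median; with the replicate block over 6 libraries it was 7 and 2, and with the block on set over 9 libraries 42 and 6. For KO versus WT it was 1 with the set as a block, 4 against wild type 2 alone, and 0 to 1 with each library left out (1 without DN wild type 1). The block changed no member's call. Centring gave 3 members past 2-fold in anti_PD1 versus Control (Lat higher, Cd247 and Cd2 lower), against 1 higher, and turned Lat in B7S1R_SP versus DN to 0.03. It also turned Cd3g, Cd3d, Cd8b1 and Lat in KO versus WT to 0.21, 0.50, 0.11 and 0.51. Lat in KO versus WT was 0.11 without the B7S1R_SP libraries, a choice made after seeing the data, and Cd247 in TIM-3_SP versus DN was 0.19 with the block on set over 9 libraries. With the 4 CD3 chains as denominator the median share of Cd3g was 62.0%, against 38.1%.

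With each library left out in turn, values that changed direction ranged as follows. In B7S1R_SP versus DN, Cd247 ranged from -2.84 to 0.04, Lck from -3.20 to 0.19, Zap70 from -1.99 to 1.25 and Lat from -0.44 to 0.41. In B7S1R_SP versus TIM-3_SP, Cd247 ranged from -2.31 to 0.57, Cd2 from -1.41 to 0.20, Lck from -2.56 to 0.83 and Zap70 from -2.12 to 1.12. In TIM-3_SP versus DN, Cd3d ranged from -0.27 to 0.40, Cd3e from -0.09 to 0.25, Cd8a from -0.10 to 0.56, Cd8b1 from -0.16 to 0.34, Lck from -1.48 to 0.20 and Zap70 from -1.00 to 1.25. Lat in KO versus WT ranged from -0.31 to 0.01. A lone library left in a population was assumed to vary like the others, and the cause of these changes was not tested. Depth is unknown outside the bulk pair, which limits what low FPKM values can show.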
